A study of Rattus norvegicus with 15 samples.

Results

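The Dlx and Lhx homeobox genes of the tooth germ were examined in molars of rat embryos. The 7 members, Dlx1, Dlx2, Dlx3, Dlx5, Dlx6, Lhx6 and Lhx8, were taken by symbol from a table of 14185 genes, and all 7 had a row. The rule for membership was the symbol alone. Between E15 and E17 the level of Lhx8 fell 1.59-fold, that of Dlx6 1.38-fold and that of Lhx6 1.26-fold. No rise of a Dlx gene passed the threshold in this step. The differences of Dlx2 and Dlx3 were upward, at 0.18 (SE 0.18) and 0.08 (SE 0.21) on the log2 scale. Between E17 and E18 Dlx3 rose 1.66-fold, and between E15 and E18 Dlx2 and Dlx3 were higher while Dlx6 and Lhx8 were lower. The calls of Dlx2 and Dlx3 were lost when certain single libraries were left out. Those of Dlx6, Lhx6 and Lhx8 held in each such test. All these changes are in the RNA of whole tooth germs, in which fewer cells of a type and less RNA per cell cannot be told apart.

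Homeobox genes encode transcription factors that bind DNA through a homeodomain. Dlx genes, relatives of the fly gene Distal-less, lie in the genome as neighbouring pairs and give the jaws their regional identity. Lhx6 and Lhx8 encode LIM-homeodomain proteins of the oral jaw mesenchyme and are induced there by fibroblast growth factors from the epithelium. Mice lacking both Dlx1 and Dlx2 form no upper molars, and mice lacking both Lhx6 and Lhx8 form no molars. The loss of both Dlx5 and Dlx6 gives the lower jaw features of the upper jaw, and mutations of human DLX3 affect hair, teeth and bone.

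Each of the 15 libraries was made from 1 molar tooth germ of a DA/HanRj rat, with 5 libraries per stage. E15 (labelled E15.5) is the bud stage, when the dental epithelium has grown into the mesenchyme, and E17 (labelled E17.5) is the cap stage, when the epithelium folds. E18 was labelled lower first molar, while the other labels name molar 1 without the jaw. Its label gives an age of E18, where the other stages have an embryonic day. By these labels the interval from E17 to E18 is shorter than that from E15 to E17. Whether all stages were dated alike is not given here. All animals were wild type and untreated according to the labels of E18 and the methods of the study. E17 replicates 1 and 2 were the left and right tooth of 1 embryo, and p-values therefore measure the spread between teeth, not only between animals. The title codes differ between the 3 stages, so that stage and any preparation that follows the codes cannot be told apart. The protocol text of E18 differs from that of E15 and E17. The labels of E18 alone name storage in RNAlater, but the methods of the study, which cover E15 and E17, also state RNAlater for RNAseq tissue. Whether the preparation of E18 differed in other ways was not tested.

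Library totals ranged from 10993502 to 27571541 counts, and the counts of members from 168 to 8899, so that no member was near the limit of detection. Among E18 libraries, replicate 1 was the deepest of all libraries. The mean correlation with libraries of the same stage was 0.916 for E18 replicate 3 and 0.963 to 0.986 for the other 14 libraries. E18 replicate 1 had 0.965, and the lowest of these 14 was E15 replicate 3 with 0.963. E15 replicate 1 was also deep, with 24109716 counts. These E15 libraries were left out only singly, so the choice was uneven between stages. E18 replicate 1 was the lowest E18 tooth for Dlx2, Dlx3 and Dlx5. Results for E18 are given with E18 replicates 1 and 3 and, where a call or direction changed, without them. Epithelial marker genes summed to 4345 to 6613 normalized counts at E15, 8366 to 9694 at E17 and 10790 to 13941 at E18, so the 3 stages did not overlap. Mesenchymal marker genes summed to 26382 to 31921, 26198 to 30221 and 20604 to 26200, respectively. The part of these shifts in the changes of the members was not tested.

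For a member that fell and for one that stayed level, the 250 bases upstream of the outer start of the gene are shown here (RefSeq, build GRCr8, which is not the build of the count files). They were chosen because Lhx8 had the largest fall of the members and Dlx1 the smallest change between E15 and E17. Both are written 5′ to 3′ on the strand of the gene, with CpG dinucleotides in capitals.
Lhx8, chr2:245929377-245929626, minus strand: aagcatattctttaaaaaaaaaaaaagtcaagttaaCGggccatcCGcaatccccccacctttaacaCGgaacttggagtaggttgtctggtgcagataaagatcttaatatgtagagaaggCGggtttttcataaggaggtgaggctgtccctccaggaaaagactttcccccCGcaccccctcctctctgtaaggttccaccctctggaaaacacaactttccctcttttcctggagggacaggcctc
Dlx1, chr3:76763614-76763863, plus strand: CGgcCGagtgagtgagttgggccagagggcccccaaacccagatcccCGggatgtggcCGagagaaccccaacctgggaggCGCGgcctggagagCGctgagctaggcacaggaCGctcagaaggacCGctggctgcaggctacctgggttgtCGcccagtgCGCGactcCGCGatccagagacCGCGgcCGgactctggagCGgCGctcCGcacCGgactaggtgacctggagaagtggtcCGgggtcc

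The stretch before Lhx8 held 5 CpG dinucleotides and 47.6% G and C, a higher share than in 36.3% of 33465 RefSeq windows of the same length. That before Dlx1 held 22 CpG dinucleotides and 69.2% G and C, a higher share than in 90.8% of the windows. Lhx8 has another listed start inside the gene, whose upstream stretch also held 22 CpG dinucleotides and 65.2% G and C, and the window listed for Lhx6 held 14 and 70.4%. The homeodomain core TAATTA, the TATA motif TATAAA, the E-box CACGTG and the Lef/Tcf motif CTTTGAT were searched on both strands. None of the 4 motifs was found in any of these 4 windows, and they occurred in 4.86%, 12.9%, 5.59% and 3.15% of all windows, respectively. The lack of a match says only that these letters are not in the window. Dlx2, Dlx3, Dlx5 and Dlx6 were not in the promoter table.

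Lhx8, which encodes a LIM-homeodomain factor of the molar mesenchyme, had the clearest stage difference of the members. Its levels, in counts divided by the size factor of the library (normalized counts), were 4823, 4772, 4934, 5185 and 4673 in the 5 teeth of E15. The E17 teeth had 3387, 3168, 2766, 2788 and 3098, and the E18 teeth had 2688, 2094, 2786, 2504 and 2471. Every E15 tooth was above every tooth of the later stages, while the ranges of E17 and E18 overlapped. The mean of 4878 ± 196 (SD, n = 5) fell to 3041 ± 264 at E17 and was 2509 ± 266 at E18. The log2 fold change was -0.67 (SE 0.06) from E15 to E17, with an adjusted p of 1.63e-05 in the quasi-likelihood test of edgeR. From E15 to E18 it was -0.95 (SE 0.09; edgeR adjusted p = 3.97e-05), a 1.93-fold fall. The step from E17 to E18 was -0.28 (SE 0.09) and did not pass the threshold (edgeR adjusted p = 0.177). Without E18 replicate 3 this step was -0.32 and passed (edgeR adjusted p = 0.0303), and without both E18 replicates 1 and 3 it was -0.38 (edgeR adjusted p = 0.0116).

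Lhx6, its close relative in the same mesenchyme, had lower levels and a smaller fall. The E15 teeth had 903.5, 691.5, 819, 905 and 855 normalized counts. At E17 the levels were 600, 723, 587, 682 and 693, and at E18 they were 531, 541, 816, 604 and 666. E15 replicate 2 lay within the E17 range, and E18 replicate 3 lay within the range of E15. The mean fell from 835 ± 87.7 to 657 ± 60.2 (SD, n = 5), with a log2 fold change of -0.34 (SE 0.09; edgeR adjusted p = 0.0169). In a fit of all 15 libraries with a shared spread this fall did not pass (edgeR adjusted p = 0.083). At E18 the mean was 632 ± 116, a log2 fold change of -0.06 (SE 0.13; edgeR adjusted p = 0.824) from E17. The difference of -0.39 (SE 0.13) between E18 and E15 missed the threshold (edgeR adjusted p = 0.0569). Without E18 replicate 3 it was -0.50 and passed (edgeR adjusted p = 0.0028), and without E15 replicate 2 it also passed (edgeR adjusted p = 0.042).

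Dlx6, which together with its genomic neighbour Dlx5 specifies the lower jaw, fell with the Lhx genes. It had 353, 293, 376, 379 and 351 normalized counts at E15. The E17 teeth had 255, 213, 287, 277 and 230, and the E18 teeth 195, 216, 187, 292 and 223. No E17 or E18 tooth reached the lowest E15 tooth, although the highest tooth of E18, replicate 4, lay just below it. The mean was 351 ± 34.5 at E15, 252.3 ± 31.3 at E17 and 223 ± 41.3 at E18 (SD, n = 5). The log2 fold change was -0.46 (SE 0.11; edgeR adjusted p = 0.00903) to E17 and -0.65 (SE 0.14; edgeR adjusted p = 0.00623) from E15 to E18. Between E17 and E18 the difference of -0.18 (SE 0.14) did not pass (edgeR adjusted p = 0.562).

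Dlx5 did not follow its neighbour. Its levels were 1441, 1301, 1947, 1416 and 1544 normalized counts at E15 and 1070, 1244, 1576, 1709 and 1364 at E17. At E18 they were 1324, 1952, 2121, 2132 and 2443, so that 4 of 5 teeth were above every earlier tooth and replicate 1 lay among them. The means were 1530 ± 249, 1393 ± 256 and 1994 ± 414 (SD, n = 5). None of the log2 fold changes passed, with -0.12 (SE 0.13; edgeR adjusted p = 0.565) from E15 to E17, 0.52 (SE 0.17; edgeR adjusted p = 0.16) from E17 to E18 and 0.39 (SE 0.16; edgeR adjusted p = 0.11) from E15 to E18. Without E18 replicate 1 the last 2 became 0.63 (edgeR adjusted p = 0.0354) and 0.51 (edgeR adjusted p = 0.0161), and both passed.

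**Figure D1:**
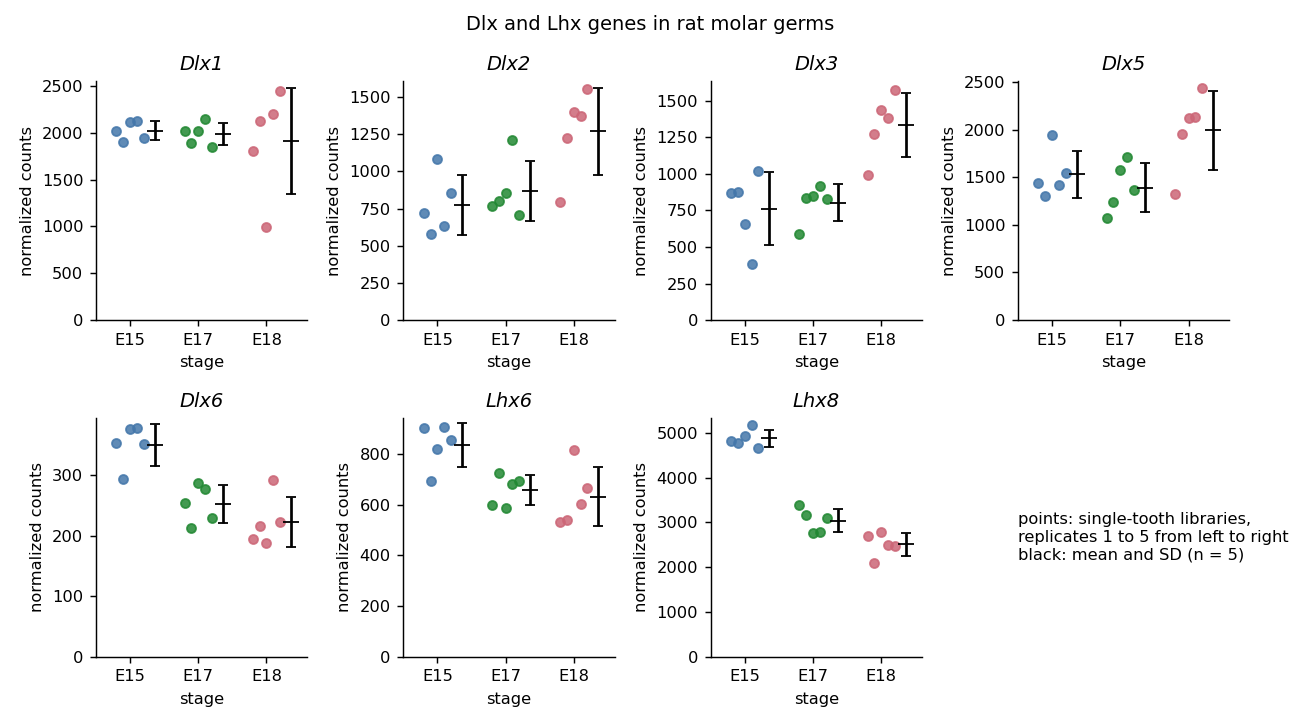
Normalized counts (y axis, from 0) of each member in every tooth germ at E15, E17 and E18 (x axis), with points for replicates 1 to 5 from left to right and black marks for the mean and SD (n = 5). Lhx8 lies between 4673 and 5185 at E15 and between 2094 and 3387 at both later stages, whereas the Dlx3 teeth of E18 (990 to 1574) are all above those of E17.

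Dlx1 and Dlx2 are neighbours in the genome and act together in the upper jaw. Dlx1 had 2018, 1906, 2115, 2131 and 1950 normalized counts at E15 and 2019, 1893, 2022, 2148 and 1845 at E17. These ranges were nearly the same, and the difference of the log2 means was -0.02 (SE 0.06; edgeR adjusted p = 0.876). The E18 teeth had 1802, 2128, 990, 2205 and 2444, of which replicate 3 stood far below every other tooth of the series. The log2 fold change was -0.05 (SE 0.19; edgeR adjusted p = 0.895) from E17 to E18 and -0.07 (SE 0.19; edgeR adjusted p = 0.814) from E15 to E18. Without E18 replicate 3 both turned in direction, to 0.10 and 0.09, and neither passed (edgeR adjusted p = 0.525 and 0.445).

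Dlx2 was more variable than Dlx1 at the first stages. The E15 teeth had 719, 581, 1085, 635.5 and 852 normalized counts, the E17 teeth 767, 799, 858, 1211 and 706. At E18 the levels were 795, 1222, 1402, 1371 and 1554, where all teeth but replicate 1 were above every earlier tooth. Means of 775 ± 202, 868 ± 199 and 1269 ± 290 (SD, n = 5) gave log2 fold changes of 0.18 (SE 0.18; edgeR adjusted p = 0.531) and then 0.55 (SE 0.19; edgeR adjusted p = 0.188) in the successive steps. Over both steps the rise was 0.72 (SE 0.20), which passed (edgeR adjusted p = 0.0266). That call was lost when E15 replicate 1, 2 or 4 or E18 replicate 4 or 5 was left out, with log2 fold changes from 0.63 to 0.70. Without E18 replicate 1 the rise from E17 to E18 was 0.67 and passed (edgeR adjusted p = 0.0427).

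Dlx3, a Dlx gene of epithelium and hard tissues, was the member with a called rise in the step from E17 to E18. Its levels were 870, 875, 659, 382 and 1022 normalized counts at E15 and 588, 833, 849, 913 and 831 at E17. The E18 teeth had 990, 1274, 1435, 1380 and 1574, all above the E17 teeth, while the highest E15 tooth lay above the lowest E18 tooth. The mean was 762 ± 249 at E15, 803 ± 125 at E17 and 1331 ± 219 at E18 (SD, n = 5). From E15 to E17 the log2 fold change was 0.08 (SE 0.21; edgeR adjusted p = 0.826), and it turned to -0.09 without E15 replicate 4. From E17 to E18 it was 0.73 (SE 0.14; edgeR adjusted p = 0.0241), and from E15 to E18 0.81 (SE 0.23; edgeR adjusted p = 0.0272). The call from E17 to E18 was close to the threshold. It was lost without E17 replicate 2, 3 or 5 or E18 replicate 2, 4 or 5, with edgeR adjusted p-values from 0.051 to 0.0732, and in the fit of all 15 libraries (0.078). The call from E15 to E18 was lost without E15 replicate 3 or E18 replicate 4 or 5.

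Set against all genes, the members had no uniform direction. Between E15 and E17, 3 of 7 members were lower and 0 higher, where 18.3% of 12627 genes tested were called, 11.3% higher and 7.02% lower. The median log2 fold change was -0.12 over the members and -0.01 over all genes. Ranges did not overlap for 2 members, against 16.3% of all genes. Between E17 and E18, 1 of 7 was higher and 0 lower, against 2.54% of 12718 genes called, and the ranges of 1 member did not overlap, against 6.78% of all genes. Without E18 replicates 1 and 3, 4 of 7 were called (Dlx2, Dlx3 and Dlx5 higher, Lhx8 lower), while the number of all genes called rose from 323 to 1072. Between E15 and E18, 2 were higher and 2 lower, against 21% of 12661 genes called, 14.2% higher and 6.73% lower, and the ranges of 2 did not overlap, against 23% of all genes. Without both E18 libraries 6 of 7 were called, all but Dlx1, while the number of all genes called rose from 2656 to 3485. With all libraries no member changed 2-fold in any comparison, against 4.02%, 1.09% and 8.36% of all genes that were called and changed at least 2-fold. Without E18 replicates 1 and 3 the log2 fold change of Lhx8 from E15 to E18 was -1.04, beyond 2-fold (edgeR adjusted p = 8.79e-06). The comparisons share libraries and are not independent of one another.

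**Figure D2:**
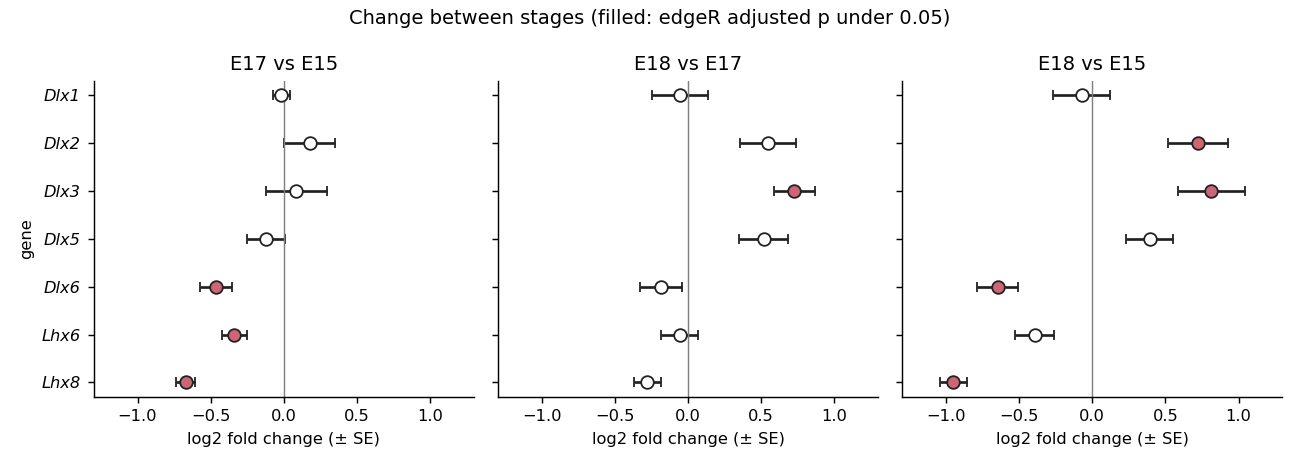
Log2 fold change (x axis) with its SE for each member (y axis) in E17 vs E15, E18 vs E17 and E18 vs E15, filled where the edgeR adjusted p was under 0.05. Lhx8 (-0.67 and -0.95) and Dlx6 (-0.46 and -0.65) are filled on the left in both comparisons with E15, and Dlx3 (0.73 and 0.81) is filled on the right in both comparisons with E18.

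Ratios within a library do not depend on the scaling between libraries, so each of 3 pairs was also compared as log2 ratio of counts. These ratios are not corrected for gene length, so that only their differences between stages are read. The 9 differences were tested with the two-sided exact permutation test, in which 5 against 5 libraries allow no p below 0.00794, and were adjusted over 9. In all, 7 of 9 passed. The share over other pairs of genes was not computed, and the comparisons of a pair share libraries. This count is therefore not read as a trait of these pairs.

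Dlx5 rose relative to its neighbour Dlx6. The log2 ratio was 2.03, 2.15, 2.37, 1.90 and 2.13 at E15, 2.07, 2.54, 2.46, 2.62 and 2.57 at E17 and 2.76, 3.17, 3.50, 2.87 and 3.45 at E18. All E18 teeth were above all earlier teeth, and E17 replicate 1 lay among the E15 teeth. The difference was 0.34 from E15 to E17 (exact permutation test, adjusted p = 0.0408), 0.70 from E17 to E18 and 1.03 from E15 to E18 (both adjusted p = 0.0238). The last is a 2.05-fold rise of the ratio. The first was lost in 8 of 10 tests with 1 library of E15 or E17 left out, the exceptions being E15 replicate 3 and E17 replicate 1, and the other differences passed in each such test.

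Lhx8 had 5.73, 4.47 and 3.87 counts per count of Lhx6 in the median tooth of E15, E17 and E18. The log2 ratio of Lhx6 to Lhx8 was -2.42, -2.79, -2.59, -2.52 and -2.45 at E15, -2.50, -2.13, -2.24, -2.03 and -2.16 at E17 and -2.34, -1.95, -1.77, -2.05 and -1.89 at E18. Every E18 tooth was above every E15 tooth, and E17 overlapped with both. The ratio was higher by 0.34 at E17 than at E15 (exact permutation test, adjusted p = 0.0357) and by 0.55 at E18 than at E15 (adjusted p = 0.0238). The first of these was lost without E17 replicate 2, 3, 4 or 5. The step of 0.21 from E17 to E18 did not pass (adjusted p = 0.161), but without E18 replicate 1 it was 0.29 and passed (adjusted p = 0.0306).

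Dlx1 fell relative to its neighbour Dlx2. The log2 ratio was 1.49, 1.71, 0.96, 1.74 and 1.19 at E15, 1.40, 1.24, 1.24, 0.83 and 1.39 at E17 and 1.18, 0.80, -0.50, 0.69 and 0.65 at E18. The stages overlapped throughout, and in E18 replicate 3 alone Dlx2 had more counts than Dlx1. The difference was -0.20 from E15 to E17 (exact permutation test, p = 0.278), -0.65 from E17 to E18 and -0.86 from E15 to E18 (both adjusted p = 0.0286). Without E18 replicate 3 the last 2 were -0.39 (adjusted p = 0.0714) and -0.59 (adjusted p = 0.0476). Leaving out E17 replicate 1, 2, 3 or 5 or E18 replicate 2, 4 or 5 also ended the call from E17 to E18. Counting both teeth of the shared E17 embryo as 1 library ended it as well (-0.63, adjusted p = 0.0612).

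**Figure D3:**
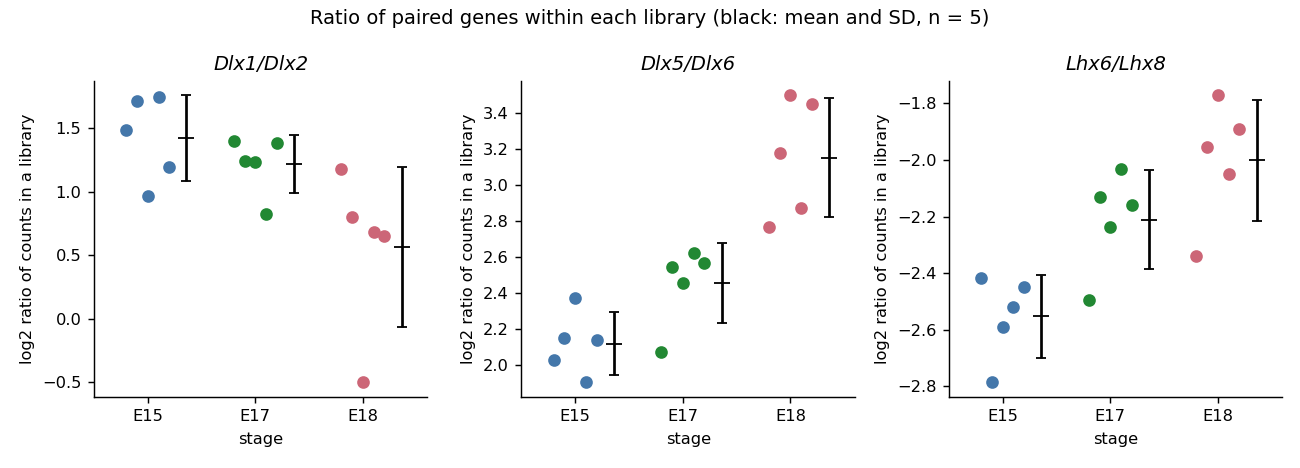
Log2 ratio of the counts of paired genes (y axis) in each tooth germ by stage (x axis), with points for replicates 1 to 5 and black marks for the mean and SD (n = 5). Dlx5/Dlx6 rises from a mean of 2.12 to 2.45 and 3.15, and the lowest point of Dlx1/Dlx2, at -0.50, is E18 replicate 3.

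The members also differed in how evenly they were expressed within a stage. At E15 the coefficient of variation was 4.02% for Lhx8 and 4.89% for Dlx1, lower than in all but 10.1% and 14.6% of genes of a like level (0.5 to 2 times the mean). It was 32.6% for Dlx3 and 26.0% for Dlx2, higher than in 97.8% and 95.5% of such genes. At E17 Dlx2 (23.0%), Dlx5 (18.4%) and Dlx3 were more variable than 98.7%, 98.2% and 94.8% of like genes, while Dlx1 had 6.02% against a median of 5.68%. Lhx8 was no longer among the even genes at E17, with 8.68%, higher than in 83.8% of like genes. The values of Dlx2 (22.8%), Dlx3 (16.5%) and Lhx8 (10.6%) at E18 were higher than in 78.0%, 57.2% and 29.5% of like genes. At E18 the median over genes like Dlx1 was 14.8%, and Dlx1 itself had 29.5%. In that stage replicate 3 had 990 normalized counts of Dlx1, and the other teeth had 1802 to 2444. The spread without this tooth was not computed.

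The profiles over the 15 libraries grouped the members across the genomic pairs. Each profile, as log2(normalized count + 1), was centred on its own mean, and the root mean square difference between profiles is given as a description, since all points share libraries and size factors. Among 21 pairs of members, Dlx2 and Dlx5 were the most alike (0.21), followed by Dlx6 and Lhx8 (0.27), Dlx6 and Lhx6 (0.28) and Lhx6 and Lhx8 (0.28). The genomic neighbours were less alike, Dlx5 and Dlx6 at rank 11 (0.49) and Dlx1 and Dlx2 at rank 13 (0.53). Without E18 replicates 1 and 3 they were at ranks 12 (0.44) and 8 (0.35), and the order at the top changed, with Dlx6 and Lhx6 first (0.21), then Dlx2 and Dlx5 (0.22), Dlx1 and Dlx5 (0.25), Lhx6 and Lhx8 (0.27) and Dlx6 and Lhx8 (0.27). Dlx3 and Lhx8 were the least alike, with 0.85.

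**Figure D4:**
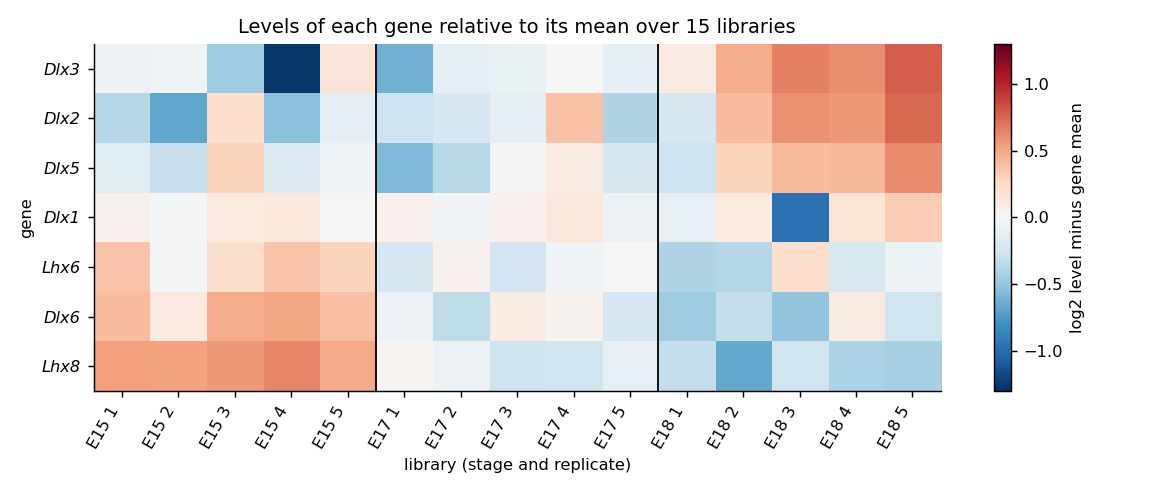
Log2 level of each member minus its own mean over 15 libraries (colour scale), with genes in rows and libraries in columns ordered by stage and replicate. Lhx8, Dlx6 and Lhx6 are high at E15, Dlx2, Dlx3 and Dlx5 are high in E18 replicates 2 to 5, and the darkest blue cells are Dlx3 in E15 replicate 4 and Dlx1 in E18 replicate 3.

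The genes nearest to each member were sought only among 306 genes named in the tables of the study that were not members. These tables hold genes of tooth development and of signalling pathways, so a nearest gene of another kind could not appear. Those nearest to Lhx8 were Tle1 (0.13), Pdgfra (0.22) and Gli3 (0.23). Pdgfra encodes a growth factor receptor of mesenchyme, and Gli3 a transcription factor of hedgehog signalling. Nearest to Lhx6 were Msx1 (0.15) and Maml1 (0.16), and nearest to Dlx6 Gli3, Kif3a (both 0.17) and Runx2 (0.19). Dlx2 and Dlx5 both had Lef1, the transcription factor of Wnt signalling, as nearest gene (0.17 and 0.20). After it came Tle3 and Nkd1 (both 0.23) for Dlx5. Dlx3 was near to Tgfb1 (0.27) and Wnt6 (0.30), and Dlx1 to Arl13b (0.10), Stil (0.14) and Tjp1 (0.15). The median difference over the candidates was 0.41 for Dlx1.

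Signals that act on the jaw and tooth changed beside the members. Of 14 such genes 9 had a row, and 8 could be tested between E15 and E17, of which 4 were higher and 1 lower. Shh, the hedgehog ligand of the dental epithelium, rose from 16.4 ± 19.8 to 418 ± 63.1 normalized counts (SD, n = 5; log2 fold change 4.57, edgeR adjusted p = 5.2e-05). Fgf3, a fibroblast growth factor of the dental mesenchyme and enamel knot, rose from 1.53 ± 2.13 to 99.3 ± 33.2 (edgeR adjusted p = 1.63e-05). Between E17 and E18, 1 of 9 was higher (Shh, by 1.35 on the log2 scale) and 1 lower (Bmp2, -0.75). Between E15 and E18, 4 of 9 were higher (Shh, Fgf3, Fgf4 and Bmp7) and 1 lower (Bmp2, -1.20).

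Of 24 other transcription factors of the jaw and tooth 10 had a row. Trp63, a factor of the dental epithelium, rose from E15 to E17 (0.51 on the log2 scale), while Gli3 (-0.52) and the mesenchymal factor Msx1 (-0.42) were lower. Between E17 and E18, Msx2 (1.41) and Trp63 (0.61) rose, and none was lower. Between E15 and E18, Msx2 (1.99), Trp63 (1.13) and Lef1 (0.50) were higher and Gli3 (-0.60), Msx1 (-0.56) and Runx2 (-0.55) were lower. Dlx4, the genomic neighbour of Dlx3, had 122, 173, 471, 202 and 279 normalized counts at E18, with the highest value in the tooth of the lowest Dlx1. Its mean was 140 ± 16.8 at E15 and 249 ± 136 at E18 (SD, n = 5), and no comparison passed (edgeR adjusted p = 0.0803 from E15 to E18). Of 13 LIM-homeodomain relatives and cofactors, 0 could be joined to a row.

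Some marker genes of both tissues of the tooth germ also differed between stages. Of 10 epithelial markers 5 had a row, among them Cdh3, Trp63 and Perp, and all 5 were higher at E17 and at E18 than at E15, with Perp, a desmosome gene, 1.66 higher on the log2 scale at E18, and Trp63 was also higher at E18 than at E17. Of 8 mesenchymal markers 5 had a row (Msx1, Pax9, Barx1, Pdgfra and Tnc). Msx1 and Pdgfra were lower at E17 and E18 than at E15, while 0 were called between E17 and E18. Pax9, Barx1 and Tnc were not called in any comparison. From E15 to E17 the difference of Tnc was upward (0.33 on the log2 scale, edgeR adjusted p = 0.14). At E17 Tnc had a mean of 10378 normalized counts, within a mean of 27767 for the summed mesenchymal markers. Relative to the summed mesenchymal markers of the same library, Lhx8 was 14.6% to 18.7% at E15 and at most 12.9% at E17 and 12.0% at E18, so every E15 tooth was again above both later stages. Lhx6 was 2.32% to 3.10%, 2.17% to 2.63% and 2.27% to 3.23% on that scale, and Dlx6 0.982% to 1.42%, 0.760% to 1.06% and 0.715% to 1.22%, so their stages overlapped. Relative to the summed epithelial markers, Dlx3 was 8.79% to 17.8%, 6.06% to 9.96% and 9.14% to 13.3%, so that its stages overlapped. The median on that scale was 14.6% at E15, 9.45% at E17 and 11.1% at E18. From E15 to E18 it went in the direction opposite to the normalized counts, while from E17 to E18 both went up. For Dlx2 the medians relative to the epithelial markers were 14.6%, 9.11% and 11.1%. Relative to the mesenchymal markers Dlx3 was 1.24% to 3.20%, 2.24% to 3.28% and 4.23% to 7.64%, with every E18 tooth above both earlier stages. Of 5 bone markers 2 had a row. Their sum was 25.9 to 161 normalized counts at E15, 42.6 to 795 at E17 and 99.3 to 407 at E18. Spp1, a gene of bone matrix, was called higher at E17 and E18 than at E15. Its level in E17 replicate 1 (24.0) nevertheless lay within the E15 range of 0 to 41.7. Dmp1, the other bone marker, was not called in any comparison, with means of 76.1 at E15, 172 at E17 and 59.2 at E18. Markers of muscle, cartilage, endothelium, nerve and glia, and blood could not be joined to rows and were not analysed here.

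Left and right teeth were compared across stages, with 9 left and 6 right teeth. None of the 7 members was called in edgeR, with log2 differences of right against left from -0.19 to 0.08, 0 at an unadjusted p under 0.05 and 0 in DESeq2. Over all genes 0% were called, and 0.907% of 12894 genes had an unadjusted p under 0.05. The change from E15 to E17 did not pass a test of difference between sides for any member either, with 0 at an unadjusted p under 0.05, against 1.91% of all genes.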

How the data were processed

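RNA was sequenced from 15 single rat molar germs with the Ovation Rat RNAseq System. The authors estimated counts with Salmon (0.99.0 in the submitters' processing notes, with build Rnor_6.0) and deposited these expected counts, rounded to integers and keyed by mouse Ensembl genes, with no normalization and no length correction. How the mouse identifiers were assigned, and whether counting used the strand, is not given in the sources used here, so overlapping antisense genes and reads shared between paralogs are uncertain. The authors also deposited HTSeq counts of E15 and E17 under rat identifiers, which were not used here.

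Of the 399 symbols that tables of the study tie to a mouse identifier, 356 could be joined to a row. Stages were compared in edgeR 4.0.16 under R 4.3.3 by its quasi-likelihood F test, with TMM scaling and filterByExpr, with only the libraries of the compared stages in a fit, Benjamini-Hochberg adjustment over all genes tested and a threshold of 0.05. All 7 members passed the filter. Standard errors were derived from the F statistic. Normalized counts are counts divided by size factors of DESeq2 1.42.0. Pair ratios are log2 of counts with 0.5 added to both. The procedure was tested on simulated data. Totals of 10993502 to 27571541 counts mean that 0 counts allow up to 0.109 to 0.273 CPM (3 counts per library), for counting error only. Chi-square per gene between libraries of a stage was 6.21 to 156, so none was counted as a repeat deposit. Replicates were numbered in accession order.

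All members were named, as were listed genes with a call and at least 2-fold change or whose direction a sentence rests on. The 3 most similar genes per member were taken among genes of the study tables whose mean reached 100 normalized counts. Some genes of the lists and of the most similar genes are not reported here by name. The members and lists were chosen with earlier results of these data known. The alternatives were DESeq2, RLE scaling, other filters on low counts, all 15 libraries in a fit, side as covariate, both teeth of 1 embryo summed, other ratio offsets, each library left out, and, chosen after seeing the data, E18 replicates 1 and 3 (for depth and correlation) left out.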

Additional observations from a re-analysis of the deposited data

Results flagged for a closer look

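Of 30 groups of 5 values (members and pair ratios by stage), 2 held a value far from the other 4, where chance gives 1.5. In E17 replicate 1 Dlx3 had 588 normalized counts, and its gap to the next tooth was 0.746 of the range of the stage. In E17 replicate 4 the log2 ratio of Dlx1 to Dlx2 was 0.83, with a gap of 0.721 of the range. Dlx1 in E18 replicate 3 did not pass the same limit.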

How the results depend on the processing

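Between E15 and E17 the count of 3 members called held in each test with a library left out (1746 to 2881 of all genes called, against 2315) and was 2 to 3 otherwise. Between E17 and E18 the count of 1 was 0 with all 15 libraries in a fit, 0 to 3 with a library left out and 4 without E18 replicates 1 and 3, while 323 of all genes were called in the fit reported, 378 with all 15 libraries and 141 to 713 with a library left out. Between E15 and E18 the count of 4 ranged from 2 (without E18 replicate 4 or 5) to 5 with a library left out, and from 4 to 6 otherwise, while 2028 to 3567 of all genes were called with a library left out, against 2656. Of 9 pair differences 7 were called, 4 to 8 with a library left out (4 without E17 replicate 2, 3 or 5) and 6 to 7 otherwise. There 4 against 5 libraries allow no p below 0.0159 before adjustment. Lhx6 passed between E15 and E18 in 6 of 17 alternatives, DESeq2 and RLE scaling among them (adjusted p from 0.0028 to 0.128 over all). Directions that turned belonged to values that had not passed. With a library left out, log2 fold changes of Dlx1 ranged from -0.050 to 0.0074 (the latter without E17 replicate 5) between E15 and E17, -0.16 to 0.10 between E17 and E18 and -0.17 to 0.094 between E15 and E18. Those of Dlx3 between E15 and E17 ranged from -0.087 to 0.21. Without E18 replicates 1 and 3 Dlx1 was 0.18 higher than at E17 and 0.16 higher than at E15. Counts of members called between sides were 0 throughout. The causes were not tested. No paired analysis was possible because the numbers given to replicates only follow the order of accessions. The alternatives with HTSeq counts were not run, since no table used here joins rat identifiers to symbols.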
